A study of Mus musculus with 18 samples.

Results

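The steroid-making steps of the ovarian theca cell were followed through 10 genes, from cholesterol uptake to androgen synthesis, in whole ovaries of young F1 female mice. The genes were Star, Scarb1, Cyp11a1, Fdx1, Fdxr, Mgarp, Hsd3b1, Hsd3b6, Cyp17a1 and Insl3, taken by gene symbol from the 30172 genes of each table, and all 10 were found. The offspring were wild-type C57BL/6J females whose mothers ate either a normal diet (F1-Control) or a diet with 3% methionine that induces hyperhomocysteinemia (F1-HHcy), begun before mating and kept up through gestation and lactation. The pups themselves received no treatment, and their fathers ate a normal diet. Ovaries came from pups on day 3 (Pd3), day 7 (Pd7) or day 21 (Pd21) after birth, with 3 libraries per diet and day and 18 in all. Each comparison of the diets asked whether the offspring of the methionine-fed dams differed from the control offspring of the same day.

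Theca cells form the outer layer of growing follicles and make androgen, which the granulosa cells inside the follicle turn into estrogen. Cholesterol enters the cell from lipoproteins, is carried to the inner mitochondrial membrane, is cut there to pregnenolone, and is then converted to progesterone and androgen by enzymes outside that membrane. Luteinizing hormone, acting through its receptor and cyclic AMP, drives the expression of much of this chain, and primordial follicles have no theca layer.

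Levels are given as FPKM, which are fragments scaled to transcript length and library total, so levels of different genes can be set side by side. Such comparisons depend on the lengths used. Those implied by the values differ from the annotated exonic lengths, with 4137 against 8500 bases for Scarb1 and 2001 against 1855 for Hsd3b1. The libraries held 33630641 to 39399281 fragments each. Differences were tested with limma on log2(FPKM + 1), with Benjamini-Hochberg adjustment over all genes that reached 1 FPKM in at least 3 libraries, and a gene was called at an adjusted p under 0.05. A log2 difference on this scale understates the change of low genes. Granulosa and oocyte genes were present throughout, with the granulosa factor Foxl2 at 45.7 to 195 FPKM and the oocyte helicase Ddx4 at 3.27 to 21.9 FPKM. The labels do not say whether a library held the ovaries of 1 pup or of several, so the p-values measure the spread between these libraries. No dam or litter is given for a library either. The diet was fed to the dams, so libraries from the same dam would not be independent replicates of it. In a whole organ, fewer cells of a type and less RNA per cell cannot be told apart, and a level cannot be assigned to theca cells. In F1-Control of Pd3, for example, Hsd3b1 was at 88.8 to 143 FPKM while Cyp17a1 was at 0.576 to 0.787 FPKM. All Pd3 and Pd7 libraries belong to the first batch of the labels and all Pd21 libraries to the second, so that batch and age cannot be told apart for any step from Pd7 to Pd21.

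A pair of libraries stood apart in these genes. F1-HHcy replicate 1 of Pd3 lay above all 3 F1-Control libraries of Pd3, and also above all 3 of Pd7, for 8 of the 10 genes, Star and Hsd3b6 being the exceptions. F1-Control replicate 3 of Pd7 lay above the other controls of its day for 8 of the 10 genes, again without Star and Hsd3b6. Values without one or the other, chosen after the levels were seen, stand beside several of the results.

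At Pd7, 8 of the 10 genes were higher in F1-HHcy and 1, Hsd3b6, was lower, while at Pd3 and at Pd21 no gene of the chain passed the test. Among all 13299 genes tested at Pd7, 5.88% were called higher and 5.98% lower. The remaining gene at Pd7, Fdxr, had a log2 difference of 0.67 (SE 0.21) and an adjusted p of 0.0645 in limma. For 9 genes every F1-HHcy library of Pd7 lay above every control, and for Hsd3b6 every one lay below, while 19.5% of all genes separated upward and 19.5% downward. The median log2 difference at Pd7 was 1.47 over the 10 genes and -0.0015 over all genes tested. Cyp11a1, Cyp17a1, Mgarp and Insl3 reached the expression minimum at Pd7 only through the F1-HHcy libraries. The counts, the median and the adjusted p-values of these genes are therefore a description of the set and not evidence for it. Without the minimum, 27626 genes entered the adjustment and 0 of the 10 genes passed, with adjusted p-values from 0.0528 for Mgarp to 0.173 for Fdxr. Few genes passed in that setting, 0.224% of all being called higher and 0.105% lower. In the model over all 18 libraries Star (adjusted p = 0.203) and Hsd3b1 (0.0614) did not pass at Pd7, where 4.83% of all genes were called higher and 6.97% lower. Hsd3b1, Cyp17a1 and Cyp11a1 also stand in a gene panel that the study chose on these Pd7 libraries, so their direction at Pd7 is not independent evidence.

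**Figure D1:**
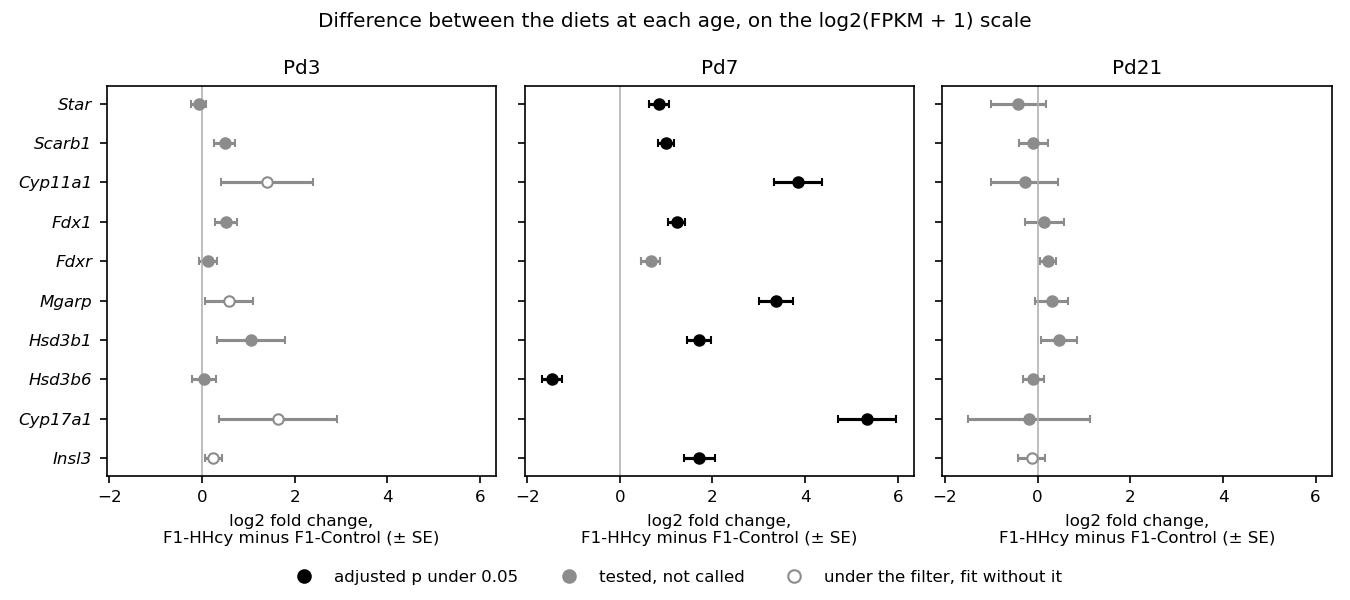
Log2 difference in FPKM + 1 between F1-HHcy and F1-Control (horizontal axis) for the 10 genes at Pd3, Pd7 and Pd21, with the standard error of the limma fit as bars, black for genes that passed and open for genes under the minimum, fitted without it. At Pd7 the values run from -1.46 for Hsd3b6 to 5.34 for Cyp17a1, while at Pd21 those of the 9 genes tested lie between -0.41 and 0.46.

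**Figure D2:**
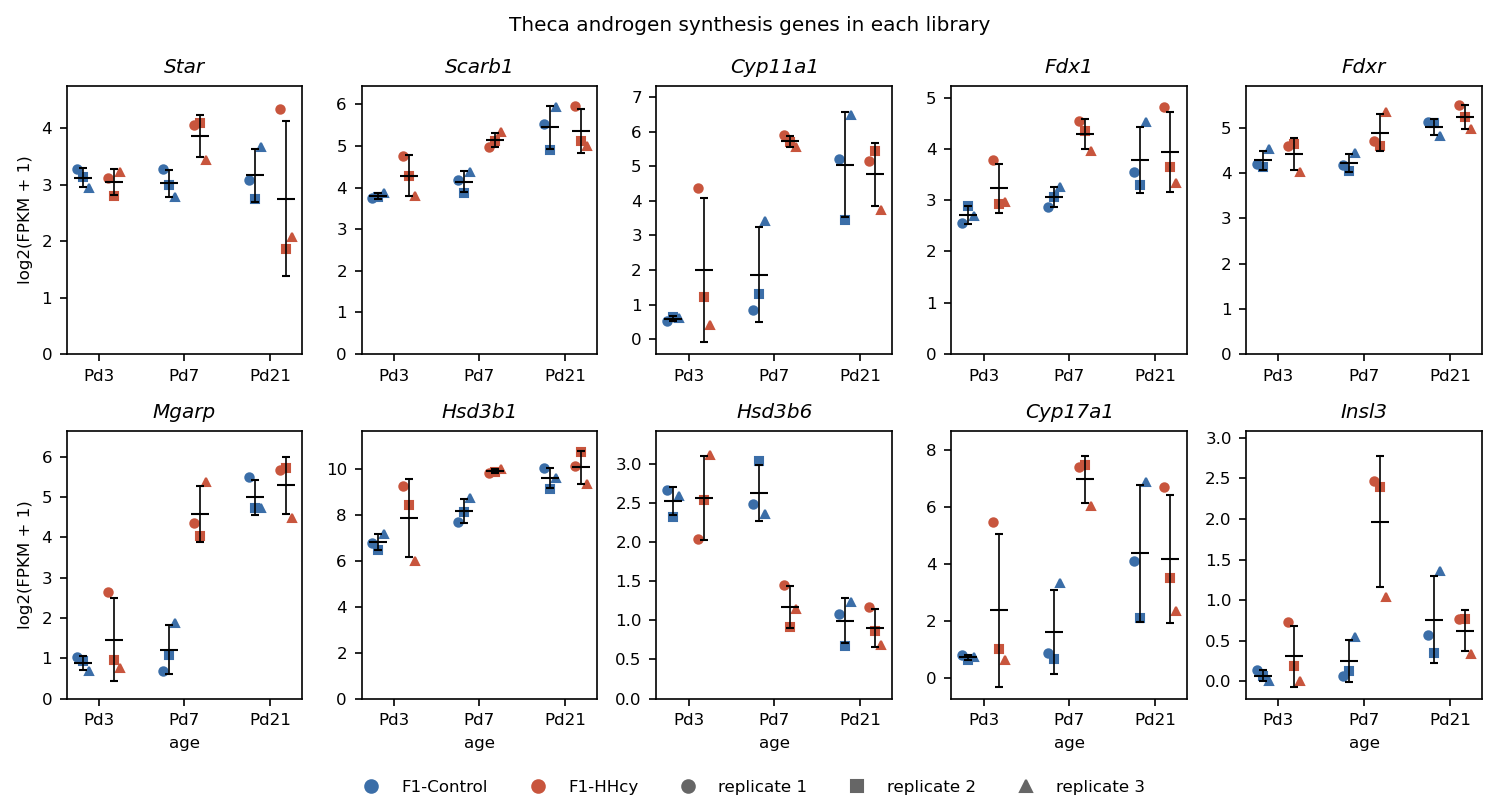
Level of each of the 10 genes as log2(FPKM + 1) in the 18 libraries, by diet and day, with 1 point per library and the mean ± SD of each group as bars. In the Pd7 panels the F1-HHcy points lie above the control points for 9 genes and below them for Hsd3b6.

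Scarb1 encodes the receptor that takes up cholesterol ester from high-density lipoprotein, and it rose at Pd7. It measured 17.2, 13.6 and 19.7 FPKM in the 3 F1-Control libraries of Pd7 (replicates 1, 2 and 3, the order used throughout) and 30.4, 33.8 and 39.1 FPKM in F1-HHcy. The lowest F1-HHcy library was well above the highest control, and the log2 difference was 1.00 (SE 0.17, adjusted p = 0.00716), a fold of 2.05 between the means of 34.4 ± 4.35 and 16.8 ± 3.05 FPKM (SD, n = 3). At Pd3 Scarb1 was 12.4, 12.6 and 13.6 FPKM in F1-Control and 26.2, 18.5 and 12.9 FPKM in F1-HHcy, where replicate 3 lay inside the control range, and the log2 difference of 0.49 was 0.25 without replicate 1. At Pd21 the control libraries held 44.8, 29.0 and 59.8 FPKM and the F1-HHcy libraries 61.2, 33.8 and 30.7 FPKM, which overlapped fully.

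Star encodes the protein that moves cholesterol to the inner mitochondrial membrane, the acutely regulated step of steroid synthesis. Its levels at Pd7 were 8.66, 7.00 and 5.89 FPKM in F1-Control and 15.7, 16.1 and 9.80 FPKM in F1-HHcy. The groups did not overlap, although F1-HHcy replicate 3 was only slightly above the highest control, and the log2 difference was 0.84 (SE 0.21, adjusted p = 0.0314). This call was kept in 2 of the 6 fits that left out 1 library, and was lost without F1-HHcy replicate 1 (adjusted p = 0.123), F1-HHcy replicate 2 (0.117), control replicate 2 (0.0881) or control replicate 3 (0.0635). At Pd3 Star measured 8.71, 7.82 and 6.69 FPKM in F1-Control of Pd3 and 7.69, 5.92 and 8.38 FPKM in F1-HHcy, and the groups overlapped. At Pd21 it was 7.50, 5.67 and 11.7 FPKM in the controls and 19.1, 2.61 and 3.21 FPKM in F1-HHcy, where replicate 1 was above and replicates 2 and 3 were below every control.

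Cyp11a1, the mitochondrial side chain cleavage enzyme that turns cholesterol into pregnenolone, was 12.9-fold higher in F1-HHcy at Pd7, and 44.8-fold higher without control replicate 3. The F1-Control libraries held 0.813, 1.50 and 9.72 FPKM and the F1-HHcy libraries 58.4, 50.9 and 46.0 FPKM. All 3 F1-HHcy libraries were close together and far above the controls, of which replicate 3 was itself well above the other two. The log2 difference was 3.85 (SE 0.52, adjusted p = 0.00363), and 4.63 without control replicate 3. Cyp11a1 reached the minimum only through F1-HHcy, and its adjusted p in limma without the minimum was 0.0652. At Pd3 the controls were low at 0.435, 0.569 and 0.517 FPKM, while F1-HHcy read 19.5, 1.32 and 0.324 FPKM, so that replicate 1 alone carried a high level and replicate 3 was below every control. At Pd21 Cyp11a1 ranged from 9.89 to 88.2 FPKM in F1-Control (36.1, 9.89 and 88.2 FPKM) and from 12.3 to 42.2 FPKM in F1-HHcy (34.2, 42.2 and 12.3 FPKM), with full overlap. Cyp11a1 lies at chr9:58006411-58027023 on the plus strand (GRCm38) and shares 145 exonic bases, 3.02% of its exonic length, with the noncoding gene Gm17322 on the same strand.

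Fdx1 and Fdxr encode ferredoxin and its reductase, which hand electrons from NADPH to the side chain cleavage enzyme. Fdx1 measured 6.32, 7.30 and 8.56 FPKM in F1-Control of Pd7 and 22.2, 19.4 and 14.6 FPKM in F1-HHcy. Its F1-HHcy values were all above the controls, with a log2 difference of 1.22 (SE 0.18, adjusted p = 0.00512). Fdxr measured 17.2, 15.4 and 20.7 FPKM in the controls and 25.2, 23.2 and 39.9 FPKM in F1-HHcy, which also separated, but by a smaller margin and with replicate 3 far above the rest. At Pd3 Fdx1 was the only one of the 6 genes tested whose F1-HHcy libraries (12.8, 6.62 and 6.82 FPKM) all lay above the controls (4.84, 6.40 and 5.45 FPKM), where 11.8% of all genes tested separated in this way. That difference, 0.52 on the log2 scale (SE 0.24), had an adjusted p of 0.248, and it was 0.24 (adjusted p = 0.515 in limma) without F1-HHcy replicate 1. Fdxr of Pd3 read 17.3, 16.6 and 22.0 FPKM in F1-Control and 23.4, 23.8 and 15.2 FPKM in F1-HHcy, overlapping through replicate 3. At Pd21 Fdx1 held 10.7, 8.87 and 21.9 FPKM in the controls and 27.2, 11.5 and 9.12 FPKM in F1-HHcy, again overlapping. Fdxr of Pd21 held 33.8, 33.6 and 27.1 FPKM against 44.7, 36.8 and 30.2 FPKM, where F1-HHcy replicate 1 was the highest and the other libraries overlapped. The log2 ratio of Fdxr to Fdx1 was 1.27 ± 0.18 in F1-Control and 0.63 ± 0.71 in F1-HHcy at Pd7 (SD, n = 3), a difference of -0.64 that was within the spread between libraries (two-sided exact permutation test, p = 0.4, where 0.1 is the smallest p that 3 against 3 libraries allow).

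Mgarp encodes a mitochondrial protein that is abundant in steroid-making tissues. Its F1-Control libraries of Pd7 held 0.615, 1.10 and 2.66 FPKM and its F1-HHcy libraries 19.3, 15.4 and 40.3 FPKM. Even the lowest F1-HHcy library was several times the highest control, and Mgarp had the smallest adjusted p of the 10 genes, 0.00138, with a log2 difference of 3.37 (SE 0.36). Mgarp reached the minimum only through F1-HHcy, and its adjusted p in limma without the minimum was 0.0528. At Pd3 it was 1.04, 0.907 and 0.601 FPKM in F1-Control and 5.27, 0.952 and 0.707 FPKM in F1-HHcy, where replicate 1 alone was above the controls. At Pd21, in the other batch, Mgarp measured 44.2, 25.7 and 25.6 FPKM in the controls and 50.04, 51.9 and 21.3 FPKM in F1-HHcy, and the diets overlapped.

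Hsd3b1 and Hsd3b6 are isoforms of the enzyme that turns pregnenolone into progesterone, and at Pd7 they moved in opposite directions. Hsd3b6 is known from the adrenal glomerulosa zone and from adult Leydig cells, while Hsd3b1 is the isoform of the ovary. Hsd3b1 measured 205, 276 and 420.5 FPKM in F1-Control of Pd7 and 897, 935 and 1009 FPKM in F1-HHcy. The F1-HHcy libraries lay close together and above the highest control, with a log2 difference of 1.71 (SE 0.26, adjusted p = 0.00558) and a fold of 3.15. Hsd3b6 measured 4.60, 7.22 and 4.14 FPKM in the same controls and 1.74, 0.891 and 1.21 FPKM in F1-HHcy. All of its F1-HHcy values were below all controls, with a log2 difference of -1.46 (SE 0.22, adjusted p = 0.00517).

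In F1-Control the mean of Hsd3b1 was 114 FPKM at Pd3, 301 FPKM at Pd7 and 800.4 FPKM at Pd21, and that of Hsd3b6 was 4.79, 5.32 and 1.02 FPKM. Hsd3b1 read 109.5, 88.8 and 143 FPKM in F1-Control of Pd3 and 1055, 561 and 785 FPKM in F1-Control of Pd21, while in F1-HHcy it read 604, 339.9 and 61.6 FPKM at Pd3 and 1101, 1712 and 647 FPKM at Pd21. Within F1-HHcy of Pd3, replicates 1 and 2 were above every control and replicate 3 was below every control. The Pd3 difference was 1.06 on the log2 scale (SE 0.74, adjusted p = 0.436). Leaving out replicate 3 gave 2.01 with an adjusted p of 0.00279, leaving out replicate 1 gave 0.37 with an adjusted p of 0.825, and Scarb1 followed the former with 0.73 and an adjusted p of 0.0141, so that replicate 3 alone decided both calls. Hsd3b6 read 5.36, 3.99 and 5.03 FPKM in F1-Control of Pd3 and 3.11, 4.81 and 7.63 FPKM in F1-HHcy, with overlap. At Pd21 it was low everywhere, at 1.11, 0.599 and 1.35 FPKM in F1-Control and 1.25, 0.821 and 0.606 FPKM in F1-HHcy, and the groups overlapped.

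As a share of Hsd3b1, Hsd3b6 amounted to 4.89, 4.50 and 3.50% in F1-Control of Pd3, 2.24, 2.61 and 0.985% in that of Pd7, and 0.105, 0.107 and 0.172% in that of Pd21. In F1-HHcy of Pd3 the shares were 0.515, 1.42 and 12.4%, spread to both sides of the controls. They were 0.194, 0.0953 and 0.120% in F1-HHcy of Pd7, below all controls of that day, and 0.113, 0.0479 and 0.0936% in F1-HHcy of Pd21. The log2 ratio of Hsd3b6 to Hsd3b1 at Pd7 was -9.58 ± 0.52 in F1-HHcy and -5.80 ± 0.76 in F1-Control (SD, n = 3), a difference of -3.78 with an exact permutation p of 0.1, the smallest this design allows. At Pd3 and Pd21 the difference was -1.03 (exact p = 0.6) and -0.64 (exact p = 0.3).

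**Figure D3:**
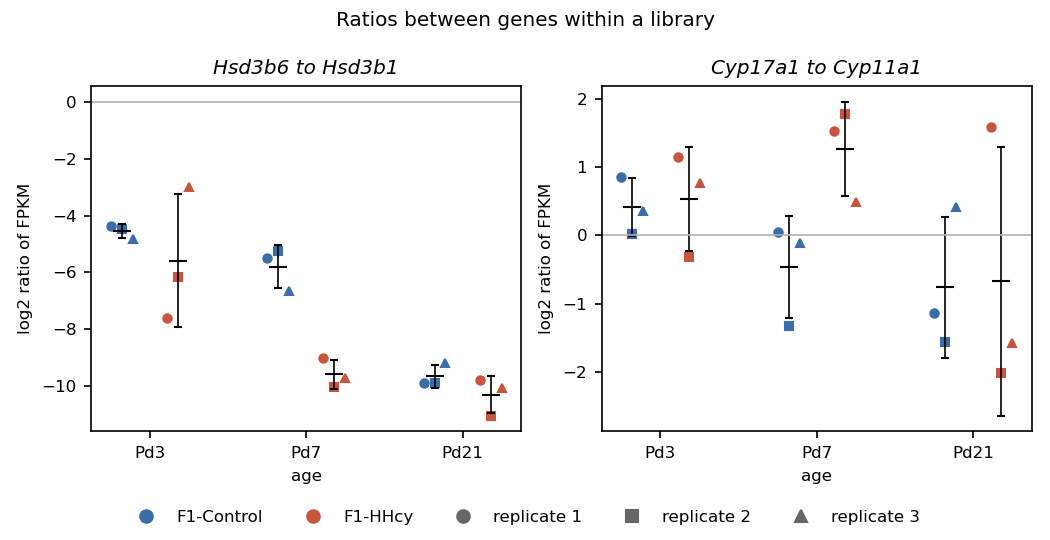
Log2 ratios of FPKM between pairs of the genes in each library, by diet and day, with 1 point per library and the mean ± SD of each group as bars. For Hsd3b6 to Hsd3b1 the F1-HHcy points of Pd7 average -9.58 and the controls -5.80, and both diets lie near -10.3 and -9.65 at Pd21.

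Both isoforms sit side by side on the minus strand of chromosome 3 in GRCm38, Hsd3b1 at chr3:98852194-98859794 and Hsd3b6 at chr3:98805504-98814443, 37.8 kb apart. Their transcripts are alike, with 82.2% identity over 1768 aligned bases, yet only 2.05% of the 50-base windows of Hsd3b1 occur unchanged in Hsd3b6. Hsd3b6 shares more with Hsd3b2 (13.2% of its windows) and Hsd3b3 (12.2%), which reached at most 0.0197 and 0.0405 FPKM in any library. Fragments from shared windows could have been split between the isoforms or set aside, and how they were treated is not given in the sources used here. The 250 bases before each start are shown because these are neighbouring genes with opposite changes. The windows held the same base at 70 of 250 positions, compared without gaps. An inserted or missing base would lower such a count, so it does not show how alike the windows are. The sequences are from RefSeq (GRCm38.p6), read 5′ to 3′ on the gene's strand, and capitals mark AGATAA, a motif bound by GATA factors, or its reverse complement TTATCT. Mgarp (chr3:51396548-51396797, minus strand) and Cyp11a1 (chr9:58014702-58014951, plus strand, the start nearest to an annotated transcript) are added as genes of the mitochondrial steps. The Hsd3b1 window is chr3:98859795-98860044 and the Hsd3b6 window chr3:98814444-98814693, both on the minus strand.
Hsd3b1: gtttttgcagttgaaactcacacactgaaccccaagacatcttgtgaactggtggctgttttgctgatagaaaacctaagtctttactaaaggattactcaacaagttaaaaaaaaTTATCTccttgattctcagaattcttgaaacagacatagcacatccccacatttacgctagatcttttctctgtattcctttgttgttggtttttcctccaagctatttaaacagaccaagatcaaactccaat
Hsd3b6: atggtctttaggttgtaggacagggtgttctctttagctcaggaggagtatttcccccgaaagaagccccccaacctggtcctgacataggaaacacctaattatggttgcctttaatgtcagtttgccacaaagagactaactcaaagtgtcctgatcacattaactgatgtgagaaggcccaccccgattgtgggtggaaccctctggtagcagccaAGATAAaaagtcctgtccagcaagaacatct
Mgarp: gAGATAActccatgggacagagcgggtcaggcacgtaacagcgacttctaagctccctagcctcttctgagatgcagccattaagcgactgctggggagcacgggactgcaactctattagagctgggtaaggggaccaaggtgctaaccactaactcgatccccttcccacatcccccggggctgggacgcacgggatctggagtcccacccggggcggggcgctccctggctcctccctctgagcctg
Cyp11a1: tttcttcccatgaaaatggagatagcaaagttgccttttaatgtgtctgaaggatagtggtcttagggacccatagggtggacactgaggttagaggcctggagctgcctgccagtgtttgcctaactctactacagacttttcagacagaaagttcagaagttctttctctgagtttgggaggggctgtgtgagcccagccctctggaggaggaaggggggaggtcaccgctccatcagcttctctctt
Of the 10 genes, 7 had 8 such windows in the table, Cyp11a1 having a pair, and Star, Cyp17a1 and Scarb1 had none. AGATAA was found on either strand in 3 of the 8 windows, those of Hsd3b1 (134 to 129 bases before the start, in reverse), Hsd3b6 (31 to 26 bases before it) and Mgarp (249 to 244 bases before it), and in 9.99% of all 32851 promoters of that length. AAGGTCA, a motif bound by the steroidogenic factor NR5A1, was in 0 of the 8 windows and in 4.08% of all promoters. Its overlapping forms, the longer CAAGGTCA and the looser CAAGGNCA with any base at N, were in 0 of the 8 windows. They were in 1.33% and 5.53% of all promoters. These are matches of letters only, and Hsd3b1, which rose, and Hsd3b6, which fell, both held an AGATAA match. For GATA factors only AGATAA and its reverse complement were searched, so other forms of the motif are not marked.

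Cyp17a1, the enzyme that commits steroids to the androgen branch, showed the largest change of the 10 genes. Its F1-Control libraries of Pd7 held 0.837, 0.599 and 9.03 FPKM and its F1-HHcy libraries 169, 175 and 64.3 FPKM. All F1-HHcy libraries were far above all controls, replicate 3 being the lowest of them and control replicate 3 the highest control. The means were 136 ± 62.2 and 3.49 ± 4.80 FPKM (SD, n = 3), a fold of 39.0 that was 189 without control replicate 3. The log2 difference was 5.34 (SE 0.63, adjusted p = 0.00250), rising to 6.19 when control replicate 3 was left out. Cyp17a1 reached the minimum only through F1-HHcy, and its adjusted p in limma without the minimum was 0.0558. At Pd3 Cyp17a1 was at 0.787, 0.576 and 0.665 FPKM in F1-Control, and F1-HHcy held 43.3, 1.06 and 0.552 FPKM, so that replicate 1 was far above, replicate 2 slightly above and replicate 3 below the controls. At Pd21 it held 16.5, 3.33 and 117 FPKM in F1-Control and 103, 10.4 and 4.12 FPKM in F1-HHcy, 1 library of each diet being high. The log2 ratio of Cyp17a1 to Cyp11a1 at Pd7 was 1.26 ± 0.69 in F1-HHcy and -0.46 ± 0.75 in F1-Control (SD, n = 3), a difference of 1.73 with the smallest exact p the design allows, 0.1. Cyp17a1 lies at chr19:46667165-46673172 on the minus strand.

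Insl3 encodes a peptide hormone of theca and Leydig cells and marks theca rather than taking part in steroid synthesis. It had the lowest mean of the 10 genes in the controls of all 3 days, at 0.0477, 0.0964 and 0.466 FPKM (1, 2 and 10 fragments) in F1-Control of Pd7, against 4.54, 4.26 and 1.06 FPKM (91, 84 and 23 fragments) in F1-HHcy. The F1-HHcy libraries were all above the controls, and the log2 difference was 1.72 (SE 0.34, adjusted p = 0.0137), compressed by the added 1 at such low levels, whereas the means of 3.29 ± 1.94 and 0.203 ± 0.229 FPKM (SD, n = 3) differed 16.2-fold, and 45.6-fold without control replicate 3. Insl3 could be tested in the 3 fits that left out a control library and was called in 2 of them, with an adjusted p of 0.0700 without control replicate 2. It reached the minimum only through F1-HHcy, and its adjusted p in limma without the minimum was 0.103. At Pd3 it was near the limit of detection, with 2, 1 and 0 fragments in F1-Control and 14, 3 and 0 in F1-HHcy, where 0 fragments allow a level of up to 0.146 and 0.148 FPKM. At Pd21 the libraries held 0.481, 0.269 and 1.57 FPKM in F1-Control and 0.709, 0.707 and 0.259 FPKM in F1-HHcy, which overlapped. Insl3 shares 404 exonic bases, 64.8% of its exonic length, with Jak3 on the same strand (chr8:71689214-71690575 for Insl3), and Jak3 measured 1.02, 0.415 and 0.870 FPKM in F1-Control and 1.62, 2.04 and 1.59 FPKM in F1-HHcy at Pd7. Reads of the shared bases cannot be assigned to either gene by strand, so the Insl3 level is uncertain. The log2 ratio of Insl3 to Cyp17a1 was -5.50 ± 0.38 in F1-HHcy and -3.68 ± 0.91 in F1-Control at Pd7 (SD, n = 3), a difference of -1.82 (exact permutation p = 0.1).

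At Pd3, 0 of the 6 genes that could be tested were called by limma or by voom on the recovered fragments, 0 had an unadjusted p under 0.05, and 1.64% of all genes tested were called higher and 1.43% lower. The median log2 difference was 0.31 over these 6 genes and -0.031 over all genes. Cyp11a1, Cyp17a1, Mgarp and Insl3 did not reach the minimum at Pd3, and without it their log2 differences of 1.40 (SE 1.00), 1.64 (SE 1.28), 0.58 (SE 0.51) and 0.24 (SE 0.18) had adjusted p-values of 0.577 to 0.644. Without F1-HHcy replicate 1 these differences were 0.22, 0.095, -0.011 and 0.029, so that this library carried most of each. F1-HHcy replicate 1 of Pd3 stood out for 7 genes even against its own group, and replicate 3 lay near the controls.

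At Pd21, 0 of 9 genes tested were called by limma or voom, 0 had an unadjusted p under 0.05, while 0% of all genes tested were called higher and 2.23% lower. All 9 overlapped between the diets, whereas 1.92% of all genes separated upward and 8.61% downward. The largest difference was that of Hsd3b1, 0.46 (SE 0.39), and the spread within a group was wide: F1-Control replicate 3 and F1-HHcy replicate 1 had the highest Cyp17a1, Fdx1 and Scarb1 of their groups. With standard errors of up to 1.32 for Cyp17a1, a change smaller than that of Pd7 was not detectable for this gene. The median was -0.091 over the 9 genes and -0.011 over all genes. Summed levels of oviduct marker genes were 97.6 to 489 FPKM in the controls of Pd21 and 6.08 to 11.4 FPKM in F1-HHcy, and their part in the Pd21 comparison was not tested.

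Changes with age were tested in a model over all 18 libraries. In F1-HHcy 4 genes rose and 1 fell from Pd3 to Pd7, against 2.29% and 3.18% of all 14607 genes. Mgarp rose by 3.12 on the log2 scale (SE 0.47, adjusted p = 0.00640), Cyp11a1 by 3.72 (SE 0.87, adjusted p = 0.0280), Cyp17a1 by 4.58 (SE 1.29, adjusted p = 0.0485) and Insl3 by 1.66 (SE 0.33, adjusted p = 0.0151). Hsd3b6 fell by 1.39 (SE 0.25, adjusted p = 0.0124). Insl3 entered this model only through the F1-HHcy libraries of Pd7, where it was high, so its calls and the count of 4 are descriptions. Its adjusted p in limma without the minimum was 0.0441. Hsd3b1 narrowly missed, with 2.01 (SE 0.57, adjusted p = 0.0504). Without F1-HHcy replicate 1 of Pd3, 7 genes rose, Hsd3b1, Fdx1 and Scarb1 being added. Leaving out any other library left fewer: 1 gene, Mgarp, rose without replicate 2 or 3 of Pd3 or replicate 1 or 2 of Pd7, and 2, Mgarp and Insl3, without replicate 3 of Pd7. Hsd3b6 was lost without replicate 2 or 3 of Pd3 or replicate 2 of Pd7 (adjusted p = 0.0643, 0.0699 and 0.0543). In F1-Control 0 of the 10 genes were called from Pd3 to Pd7 by limma or by voom, 1 (Hsd3b1, with 1.36, SE 0.57) had an unadjusted p under 0.05, and 5.27% of all genes were called higher and 6.08% lower. The change in F1-HHcy against that in F1-Control, which is also the diet effect at Pd7 against that at Pd3, was tested as an interaction. None of the 10 genes passed that test by limma or voom, 3 had an unadjusted p under 0.05, and 0.103% of all genes were called higher and 0.308% lower. Hsd3b6 with -1.49 (SE 0.36) and Mgarp with 2.79 (SE 0.66) came nearest, at an adjusted p of 0.0759 each, so a different diet effect at Pd7 than at Pd3 was not shown. Without F1-HHcy replicate 1 of Pd3, Mgarp (3.38, adjusted p = 0.0128) and Hsd3b6 (-1.75, adjusted p = 0.0243) passed, and without F1-HHcy replicate 3 of Pd7, Insl3 did (1.94, adjusted p = 0.0382).

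From Pd7 to Pd21, a step that also changes the batch, 4 genes rose and 1 fell in the controls. Mgarp was higher at Pd21 by 3.78 on the log2 scale (SE 0.47, adjusted p = 2.41e-05), Cyp11a1 by 3.18 (SE 0.87, adjusted p = 0.0120), Scarb1 by 1.31 (SE 0.28, adjusted p = 0.00243) and Fdxr by 0.79 (SE 0.21, adjusted p = 0.0103), while Hsd3b6 fell by 1.63 (SE 0.25, adjusted p = 0.000206). Among all genes 18.2% were called higher and 12.1% lower. The Cyp11a1 call was lost without F1-Control replicate 1 of Pd7 (adjusted p = 0.0582) or replicate 3 of Pd21 (0.0628), and Cyp17a1, at 2.75 (SE 1.29, adjusted p = 0.118), was called only without replicate 2 of Pd21 (3.88, adjusted p = 0.0471). In F1-HHcy 0 genes were higher at Pd21 by limma or voom, against 10.4% and 9.78% of all genes. By limma 1 was lower, Insl3, which fell by 1.34 (SE 0.33, adjusted p = 0.0124), against 9.19% of all genes. Voom called 0 of the 10 genes lower, against 9.79% of all genes. Insl3 entered this model only through the F1-HHcy libraries of Pd7, where it was high, so this call is a description. Its adjusted p in limma without the minimum was 0.0317. Insl3 was lost without replicate 1 or 2 of Pd7 or replicate 3 of Pd21 (adjusted p = 0.0725, 0.0815 and 0.0658), and without replicate 1 of Pd21, Star (-1.90) and Cyp17a1 (-4.03) were called lower too (adjusted p = 0.000518 and 0.0319). The ranges of the F1-HHcy libraries of Pd7 and the F1-Control libraries of Pd21 overlapped for all 10 genes, which is a description across batches with no test. Some ranges were wide, such as 3.33 to 117 FPKM for Cyp17a1 in F1-Control of Pd21, and the share of all genes that overlapped is not given. The overlap therefore does not show that these groups were alike.

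**Figure D4:**
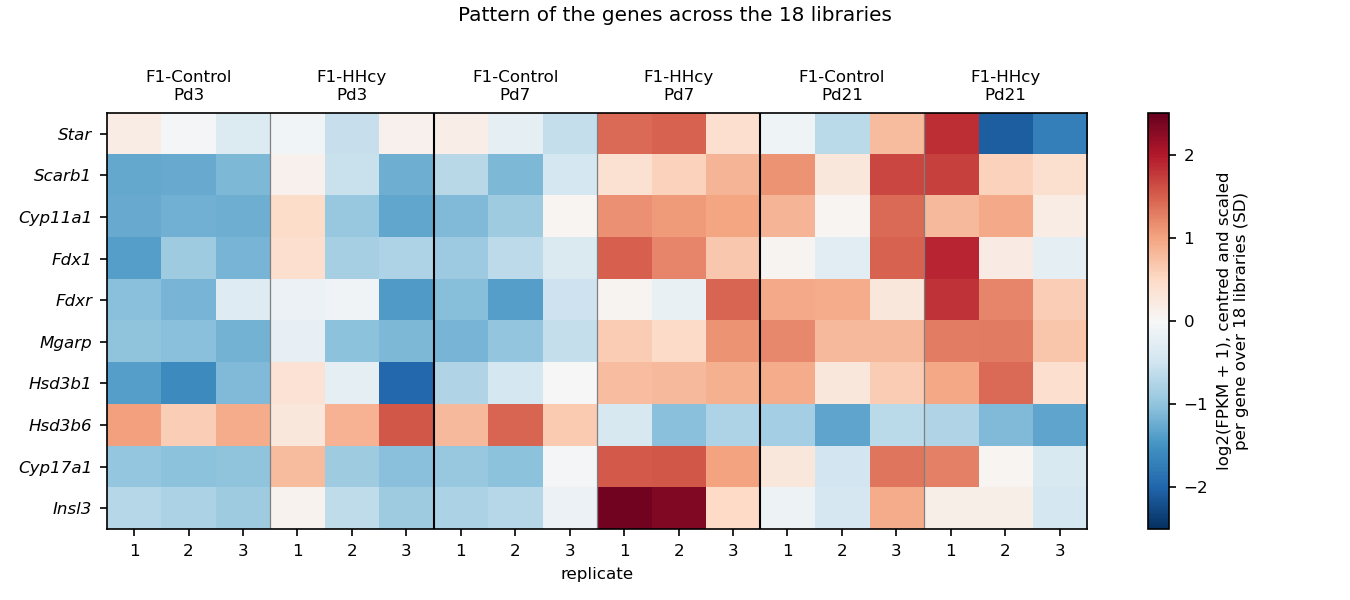
Level of each of the 10 genes in the 18 libraries as log2(FPKM + 1), centred and scaled per gene over the libraries, with libraries ordered by day and diet. The mean scaled level runs from 0.72 to 0.94 in F1-HHcy of Pd7 and from -0.64 to -0.20 in F1-Control of Pd7, and F1-HHcy replicate 1 of Pd3 (0.21) is the highest library of its day.

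The diet effect differed between Pd21 and Pd7 for 3 genes by limma's interaction test. The log2 effect at Pd21 minus that at Pd7 was -3.07 for Mgarp (SE 0.66, adjusted p = 0.0119), -1.85 for Insl3 (SE 0.47, adjusted p = 0.0336) and 1.37 for Hsd3b6 (SE 0.36, adjusted p = 0.0401). Insl3 reached 1 FPKM in 4 of the 18 libraries, the 3 F1-HHcy libraries of Pd7 and 1 other, and thus entered the model through the group where it was high. Without the minimum its adjusted p was 0.0773, that of Hsd3b6 was 0.0919 and that of Mgarp 0.0434, so that Mgarp alone stayed under 0.05. Among all genes 0.986% had a higher and 2.9% a lower effect at Pd21. Cyp17a1 with -5.53 (SE 1.83, adjusted p = 0.112) and Cyp11a1 with -4.12 (SE 1.23, adjusted p = 0.0745) had larger differences and larger errors, and did not pass. Mgarp was called in 11 of the 12 fits that left out 1 library, the exception being F1-Control replicate 1 of Pd21 (adjusted p = 0.0662). Insl3 was called in 4 of them and Hsd3b6 in 3, with an adjusted p of up to 0.117 and 0.126 otherwise. Without F1-HHcy replicate 1 of Pd21, 6 genes had a lower effect at Pd21, Star, Cyp17a1, Fdx1 and Scarb1 being added, and Cyp11a1 passed without F1-Control replicate 3 of Pd7 (-4.90, adjusted p = 0.0261) or replicate 2 of Pd21 (-4.92, adjusted p = 0.0404). With voom Mgarp alone was called.

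A looser criterion, an unadjusted p under 0.05 with a log2 difference over 0.58 in size, was also counted. By it 9 of the 10 genes, Fdxr included, were higher and 1 was lower at Pd7, where 9.06% and 7.35% of all genes were. At Pd3 it took 0 of the 6 genes tested (5% and 4.74% of all genes higher and lower), and at Pd21 0 of 9 (0.0824% and 5.06%). From Pd3 to Pd7 it took 1 gene higher in F1-Control (6.76% of all genes, and 6.89% lower) and 7 higher and 1 lower in F1-HHcy (5.76% and 6.03%). From Pd7 to Pd21 it took 6 higher and 1 lower in F1-Control (14.5% and 9.48%) and 0 higher and 3 lower in F1-HHcy (8.22% and 9.68%). For the interaction of Pd7 and Pd3 it took 2 higher, Mgarp and Insl3, and Hsd3b6 lower (4.75% and 5.28%). For that of Pd21 and Pd7 it took Hsd3b6 higher and 6 genes lower (5.55% and 9.72%).

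The genes were not equally abundant. Hsd3b1 was the highest of the 10 in all 6 groups, with no library overlapping the next gene. In F1-Control of Pd3 it was followed by Fdxr, Scarb1 and Star, each separate from its neighbour, and Mgarp, Cyp17a1, Cyp11a1 and Insl3 were all at or below 1.04 FPKM. In F1-HHcy of Pd7 the order was Hsd3b1, Cyp17a1, Cyp11a1, then Scarb1, Fdxr, Mgarp, Fdx1 and Star, each of which overlapped its neighbour, and last Insl3 and Hsd3b6, which overlapped too. By mean, Cyp17a1 had rank 8 of the 10 in F1-Control of Pd7, overlapping its neighbours, and rank 2 in F1-HHcy, apart from them. Over the 18 libraries, the correlation of each gene with the mean of the other 9 was 0.96 for Cyp17a1 and Fdx1, 0.94 for Cyp11a1, 0.89 for Scarb1, 0.82 for Hsd3b1, 0.81 for Mgarp, 0.76 for Insl3, 0.66 for Fdxr, 0.38 for Star and -0.80 for Hsd3b6. These are descriptions over libraries that share groups, and Star had the lowest of the positive ones.

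Of 18 regulators of theca and other steroid-making cells, all tested at Pd7, 3 were higher and 0 lower, with a median of 0.15. They were Lhcgr, the receptor for luteinizing hormone, Prlr, the prolactin receptor, and Nr5a2, a nuclear receptor of steroidogenic cells. Lhcgr measured 0.407, 0.202 and 3.86 FPKM in F1-Control of Pd7 and 17.6, 14.2 and 6.06 FPKM in F1-HHcy, with no overlap, and rose by 2.64 on the log2 scale (SE 0.51, adjusted p = 0.0119). F1-HHcy replicate 1 of Pd3 again stood out in Lhcgr, with 4.35 FPKM against 0.324 and 0.421 FPKM in its group and 0.327 to 0.596 FPKM in the controls. Lhcgr and Prlr reached the minimum at Pd7 only through F1-HHcy, with 1 of the 3 controls at 1 FPKM or above, so the count of 3 is a description. Prlr rose by 1.64 (SE 0.22, adjusted p = 0.00360), and Nr5a2 by 1.52 (SE 0.39, adjusted p = 0.0363).

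The counts of the steps beside the chain stand against the 5.88% of all genes called higher and 5.98% called lower at Pd7. Among 5 redox partners that serve Cyp17a1 and other microsomal enzymes, such as cytochrome b5 (Cyb5a, at 298 FPKM in F1-HHcy and 315 FPKM in F1-Control of Pd7), 0 were called by limma or voom and 0 had an unadjusted p under 0.05, with a median of -0.067. Among 17 tested of 18 cholesterol-handling genes, 2 rose, Abca1, the cholesterol exporter, by 0.70 (SE 0.14, adjusted p = 0.0131), and Lipe, which frees stored cholesterol, by 0.52 (SE 0.15, adjusted p = 0.0485), with a median of -0.030. Of 12 tested of 18 other steroid-converting enzymes, 2 rose and 1 fell, with a median of 0.11. Srd5a1, which reduces testosterone to a stronger androgen, rose by 0.93 (SE 0.25, adjusted p = 0.0414), Cyp1b1 by 0.94 (SE 0.18, adjusted p = 0.0134), and Akr1c18, which inactivates progesterone, fell by 1.19 (SE 0.22, adjusted p = 0.00983).

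Markers of other cells moved at the same ages. Among all genes tested at Pd7, 5.88% were called higher and 5.98% lower. Of 15 theca and interstitial markers outside the chain, 5 were higher and 1 lower at Pd7 with a median of 0.42. The higher ones included the hedgehog targets Ptch1 (1.01, SE 0.13, adjusted p = 0.00336) and Hhip (1.51, SE 0.34, adjusted p = 0.0225) and the stromal receptor Pdgfrb (0.86, SE 0.18, adjusted p = 0.0184). The marker called lower is not named here. At Pd3, where no gene of the chain was called, 4 of the 14 tested were higher and 1 lower with a median of 0.79, against 1.64% and 1.43% of all genes. Of 6 signals from oocyte and granulosa cells to theca, 2 rose at Pd7, Ihh, a hedgehog ligand, by 1.73 (SE 0.43, adjusted p = 0.0330) and Bmp15 by 1.82 (SE 0.23, adjusted p = 0.00300). Hhip and Ihh reached the minimum at Pd7 only through F1-HHcy. Of 12 oocyte markers 1, Bmp15, was higher and 6 were lower at Pd7, with a median of -0.98. Sohlh1, an oocyte transcription factor, fell by 2.66 (SE 0.26, adjusted p = 0.00121), Figla, another, by 2.17 (SE 0.28, adjusted p = 0.00310), and Zp2, a protein of the egg coat, by 1.17 (SE 0.23, adjusted p = 0.0142). The 12 summed to 1910 to 3067 FPKM in F1-Control and 1062 to 1631 FPKM in F1-HHcy, and the groups did not overlap. Granulosa markers, 2 of 13 of which were higher at Pd7, summed to 356 to 642 FPKM in F1-Control and 632 to 999.7 FPKM in F1-HHcy. Erythroid markers, of which 5 of 6 tested were lower, summed to 928 to 5993 FPKM and 288 to 504 FPKM. The part of the oocyte, granulosa and erythroid lists in the Pd7 differences of the chain was not tested. Recomputing the totals without hemoglobin and mitochondrially encoded genes left 8 genes of the chain higher and 1 lower.

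The adrenal cortex uses the same chain as far as progesterone. Among 10 adrenal markers, 2 reached the minimum at Pd7 and 1 was higher, Mrap, with 1.20 (SE 0.25, adjusted p = 0.0168). The 10 summed to 12.6 to 18.4 FPKM in F1-Control and 21.0 to 29.5 FPKM in F1-HHcy at Pd7. Cyp21a1, an adrenal enzyme, was at most 1.35 FPKM, and Cyp11b2, which makes aldosterone, was listed at 0 in every library except F1-Control replicate 2 of Pd7, which held 2.65 FPKM. The part of the adrenal list in the Pd7 differences of the chain was not tested.

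Outside the chain, the gene whose log2 level over the 18 libraries was most like the mean of the 10 was Plin1, the lipid droplet coat protein, with r of 0.97, and 0.95 after each group was centred on its mean. Its mean level was 1.09 FPKM in F1-Control and 5.34 FPKM in F1-HHcy at Pd7. It was followed by Oxtr (r = 0.96), Gpam (0.96), Prlr (0.95), Gm46750, Adcy1, Frmd5, C430002N11Rik, Gdpd2 and Elovl6 (0.94 to 0.93). These correlations come from 14607 genes and are given without a test.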

How the data were processed

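RNA was measured in 18 whole-ovary libraries, 3 per diet and day, grouped by the labels. The authors deposited FPKM per gene for each library. The submitters' processing notes name FastQC 0.11.9, Trimmomatic 0.39, STAR 2.7.9a, featureCounts 2.0.1 (Subread), DESeq2 1.36.0 and the build GRCm38 (mm10), and whether counting used strand is not given in the sources used here. The library kit keeps strand and selects polyadenylated RNA. The 10 genes and the gene lists beside them were chosen with earlier results of these data known. All 10 genes were named, with up to 3 list genes of smallest p at Pd7 and the 2 most abundant per list, and the 10 genes most like their mean.

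FPKM were tested as log2(FPKM + 1) with limma 3.58.1 (R 4.3.3) with a mean-variance trend, per day for the diet and over all 18 libraries for age and interactions. Genes needed 1 FPKM in 3 libraries. Whole fragments could be recovered from the steps of the FPKM values of all 27294 genes above 0 in at least 3 libraries, which gave depths and a voom alternative. Ratios were compared with two-sided exact permutation tests (SciPy 1.17.1). Same-numbered libraries of the diets did not deviate together (correlations -0.34 to 0.087), so no pairing was used. No 2 libraries agreed within sampling noise. The fit was tested on simulated data. Counting limits cover counting error only. Alternatives were the added constant, the minimum, scaling, the total without hemoglobin and mitochondrial genes, voom, a replicate block, an unadjusted p under 0.05 with a log2 difference over 0.58, the libraries fitted, and leaving out each library.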

Additional observations from a re-analysis of the deposited data

Results flagged for a closer look

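The diet effect differed between Pd21 and Pd7 for 3 genes by the limma interaction test over all 18 libraries. The difference of the log2 effects was -3.07 for Mgarp, -1.85 for Insl3 and 1.37 for Hsd3b6. Among all genes, 0.986% had a higher and 2.9% a lower effect at Pd21. Insl3 reached 1 FPKM in 4 of the 18 libraries, 3 of them the F1-HHcy libraries of Pd7. Without the expression minimum the adjusted p in limma was 0.0434 for Mgarp, 0.0773 for Insl3 and 0.0919 for Hsd3b6. Pd7 and Pd21 also belong to different batches, and each group mean rests on 3 libraries.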

How the results depend on the processing

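At Pd7, 8 genes were called higher and 1 lower with a constant of 0.1, other scalings, the reduced total and voom. In these settings 5.21% to 6.13% of all genes were called higher and 4.95% to 6.23% lower. The counts were 0 and 0 without the minimum, where 0.224% and 0.105% of all genes were called. With the replicate block at Pd7, 9 genes were higher and 1 lower, Fdxr being added (adjusted p = 0.0214), though the numbers did not pair the libraries. That fit called 7.18% of all genes higher and 6.91% lower. By unadjusted p and size, 1 gene was higher in F1-Control from Pd3 to Pd7 and 7 in F1-HHcy, 3 were lower in F1-HHcy from Pd7 to Pd21, 2 higher and 1 lower in the interaction of Pd7 and Pd3, and 6 lower in that of Pd21 and Pd7. In F1-HHcy from Pd3 to Pd7, 2 were higher without the minimum and 7 with only 12 libraries, against 0.454% and 2.13% of all genes. In F1-HHcy from Pd7 to Pd21, 0 were lower with a constant of 0.1 or voom, against 9.26% and 9.79% of all genes. In the interaction of Pd21 and Pd7, 0 were higher with a constant of 0.1, no minimum, voom or the replicate block, and 1 was lower with a constant of 0.1, no minimum or voom. Of all genes, 0.252% to 0.945% were higher in the former settings and 1.51% to 2.54% lower in the latter. Fdxr from Pd3 to Pd7 in F1-Control was 0.0026 with median-ratio scaling, and the ratio of Insl3 to Cyp17a1 at Pd21 was 0.056 with 1 added to both. List genes called by unadjusted p and size were 30 higher and 17 lower at Pd3 (9 and 10 adjusted) and 17 lower at Pd21 (9 adjusted). Of all genes, the shares were 5% and 4.74% at Pd3 (1.64% and 1.43% adjusted) and 5.06% at Pd21 (2.23% adjusted). Leaving out 1 library gave 0 to 2 genes higher at Pd3, 1 to 7 higher and 0 to 1 lower from Pd3 to Pd7 and 0 to 3 lower from Pd7 to Pd21 in F1-HHcy, 0 to 1 higher and 0 to 1 lower in the interaction of Pd7 and Pd3, and 0 to 1 higher and 0 to 6 lower in that of Pd21 and Pd7. It gave list genes of 0 to 44 higher and 0 to 25 lower at Pd3, 6 to 24 and 8 to 23 at Pd7, and 0 to 7 lower at Pd21. The shares of all genes called when 1 library was left out are not given, so these counts are descriptions. Ratio differences ranged from -0.19 to 0.55 (Pd3) and -1.04 to 0.77 (Pd21) for Cyp17a1 to Cyp11a1, -0.65 to 1.05 for Insl3 to Cyp17a1 and -0.41 to 0.41 for Fdxr to Fdx1 at Pd21. Uncalled genes that crossed 0 were Star (-0.17 to 0.054), Hsd3b6 (-0.24 to 0.30) and, with no minimum, Mgarp (-0.011) at Pd3, Star (-1.20 to 0.036), Cyp11a1 (-1.08 to 0.44), Cyp17a1 (-1.44 to 1.07), Hsd3b6 (-0.25 to 0.020), Fdx1 (-0.30 to 0.51) and Scarb1 (-0.40 to 0.14) at Pd21, Star (-0.23 to 0.015), Hsd3b6 (-0.10 to 0.24) and Fdxr (-0.17 to 0.057) from Pd3 to Pd7 and Star (-0.11 to 0.36) from Pd7 to Pd21 in F1-Control, Hsd3b1 (-0.16 to 0.54) and Scarb1 (-0.084 to 0.40) from Pd7 to Pd21 in F1-HHcy, and Hsd3b1 (-0.30 to 1.34) in the interaction of Pd7 and Pd3. The causes were not tested. Depth limits Insl3, at 0 to 91 fragments.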
